A study of Mus musculus with 8 samples.

Results

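The 10 genes described here are subunits, inhibitors and targets of the transcription factor NF-kB, measured as RNA in B-cell-biased lymphoid progenitors of mice without the histone variant macroH2A1 and of wild-type mice. The members are a named set, Nfkb1, Nfkb2, Rel, Rela, Relb, Nfkbia, Nfkbie, Tnfaip3, Traf1 and Bcl3, found by symbol in the mouse annotation. All 10 were among the 37991 gene IDs of the count table, and all 10 were among the 13722 genes that passed the filter on low counts. The H2afy_KO group holds 4 pools of cells from H2afy-/- mice and the H2afy_WT group holds 4 pools from H2afy+/+ mice, where H2afy is the gene of macroH2A1. Mice of both groups were 5 to 12 weeks old, carried no other stated allele and received no stated agent. Each pool held RNA of 5000 to 15000 progenitors from 2 to 3 mice, sorted by flow cytometry from bone marrow cells that had been enriched for Kit. The labels do not give the deleted part of the H2afy allele, nor whether any mouse contributed to more than 1 pool, and the p-values therefore speak of variation among the pools only, which may be partly technical.

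NF-kB is a dimer built from 5 related proteins. RelA, c-Rel and RelB carry a domain that activates transcription, while p50 and p52 are cut from the precursors that Nfkb1 and Nfkb2 encode. In a resting cell the inhibitors of the IkB family hold the dimers in the cytoplasm until a kinase complex, IKK, marks the inhibitor for destruction, and the freed dimer then switches on genes that include its own inhibitors. In the B lineage the pathway is known best for the survival and activation of mature B cells, a later stage than the progenitors sorted here.

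Binding of NF-kB to DNA is known for a short site that begins with GGG and ends with CC. Promoters are shown because NF-kB is known to induce its own inhibitor gene Nfkbia, and Traf1 is shown beside it because both genes had their highest levels in the same 2 pools. RefSeq promoter windows of build GRCm38.p6 were at hand for 8 of the 10 members, all but Nfkb1 and Relb, and the 250 bases before each start were searched on both strands for GGG, then any 3 bases, then TTCC. A match was found for 5 of the 8 members, Nfkb2, Rel, Nfkbia, Nfkbie and Tnfaip3, against 5.31% of the 27025 genes with a window. By windows the counts were 8 of the members' 11, against 4.65% of all 32851. Capitals mark the matches in the stretches that follow, each written 5′ to 3′ on the strand of its gene. There a match on the other strand reads as its reverse complement. Nfkb2 and Tnfaip3 each had further windows with matches that are not printed. The windows of Rela, Traf1 and Bcl3 held no match. A match is a string of letters and was not measured as a bound site.
Nfkbia, chr12:55492648-55492897, minus strand: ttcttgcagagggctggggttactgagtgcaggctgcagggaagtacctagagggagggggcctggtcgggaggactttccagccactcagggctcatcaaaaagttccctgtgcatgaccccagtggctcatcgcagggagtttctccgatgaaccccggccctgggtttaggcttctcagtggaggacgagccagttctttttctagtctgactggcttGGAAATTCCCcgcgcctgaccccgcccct
Nfkb2, chr19:46304677-46304736, plus strand: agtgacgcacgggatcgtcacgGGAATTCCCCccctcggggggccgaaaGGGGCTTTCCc
Rel, chr11:23771026-23771085, minus strand: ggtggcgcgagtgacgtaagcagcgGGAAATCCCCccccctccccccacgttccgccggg
Tnfaip3, chr10:19015411-19015470, minus strand: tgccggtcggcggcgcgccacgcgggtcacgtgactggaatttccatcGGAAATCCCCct
Nfkbie, chr17:45555569-45555628, plus strand: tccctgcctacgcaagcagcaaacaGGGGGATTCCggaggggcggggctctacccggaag
Traf1, chr2:34961773-34962022, minus strand: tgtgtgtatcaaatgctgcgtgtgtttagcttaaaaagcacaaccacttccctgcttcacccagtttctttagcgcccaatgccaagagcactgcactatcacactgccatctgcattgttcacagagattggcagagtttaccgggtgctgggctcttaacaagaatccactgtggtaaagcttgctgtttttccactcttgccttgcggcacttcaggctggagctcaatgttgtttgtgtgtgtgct

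The pools held 21330088 to 29029765 gene counts. H2afy itself had 1953, 1744, 1423 and 1517 CPM (gene counts scaled to a common library total) in H2afy_KO 1 to 4, against 2455, 2567, 2063 and 1981 CPM in H2afy_WT 1 to 4, and all H2afy_KO pools lay below all H2afy_WT pools. Its log2 fold change was -0.45 (SE 0.15, edgeR adjusted p = 0.504, and adjusted p = 0.0930 with the replicate number as a block), and since the deleted part of the gene is not stated these counts do not check the genotype labels. The progenitor markers Il7r, Flt3, Kit, Ly6d, Dntt, Rag1, Rag2 and Ebf1 were present in every pool, with a summed level of 6191 to 8027 CPM in H2afy_KO and 8021 to 9609 CPM in H2afy_WT. Of these 8 markers 2 had a positive log2 fold change (median -0.41), and in 4 all H2afy_KO pools lay below all H2afy_WT pools, against 2.35% of all tested genes. Pools of one genotype differed widely in immunoglobulin transcripts, which took 0.403%, 10.1%, 39.4% and 33.7% of counts in H2afy_KO 1 to 4, against 3.52%, 1.01%, 19.7% and 13.0% in H2afy_WT 1 to 4. The 8 plasma cell markers followed the same order of pools, with summed levels of 307, 5570, 21064 and 17763 CPM in H2afy_KO and 2427, 706, 9342 and 6572 CPM in H2afy_WT. H2afy_KO 3 and 4 were the pools richest in both, so values without them stand beside the results.

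Compared per length, the subunits of the canonical dimer and its main inhibitor were the most abundant members and the subunits of the alternative pathway, with Bcl3, the scarcest. Nfkbia was at 52.2 ± 27.9 CPM per kilobase of exon in H2afy_KO and 30.5 ± 6.35 in H2afy_WT (SD, n = 4 each). Nfkb1 followed with 31.4 ± 3.76 and 26.7 ± 4.03, and Rela with 26.8 ± 2.99 and 26.3 ± 4.08, each with H2afy_KO first and H2afy_WT after it. These 3 did not stand apart from each other: Nfkbia was above Nfkb1 in 5 of 8 pools and Nfkb1 above Rela in 6 of 8. Nfkbie (8.65 ± 2.13 in H2afy_KO and 7.44 ± 0.795 in H2afy_WT) and Rel (6.02 ± 1.69 and 6.89 ± 1.59) formed the next level, below Rela in all 8 pools and not ordered between themselves, since Nfkbie was higher in 5 of 8. Traf1 (2.61 ± 1.98 in H2afy_KO and 1.06 ± 0.432 in H2afy_WT) and Tnfaip3 (1.53 ± 0.713 and 1.6 ± 0.5) came below Rel in all 8 pools, and Traf1 was above Tnfaip3 in 3 of them. Nfkb2, Relb and Bcl3 closed the order with means of 0.824 ± 0.394, 0.517 ± 0.148 and 0.482 ± 0.237 CPM per kilobase in H2afy_KO, against 0.416 ± 0.181, 0.408 ± 0.127 and 0.254 ± 0.0777 in H2afy_WT. Tnfaip3 was above Nfkb2 in all 8 pools, whereas Nfkb2 was above Relb in 4 and Relb above Bcl3 in 6.

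**Figure D1:**
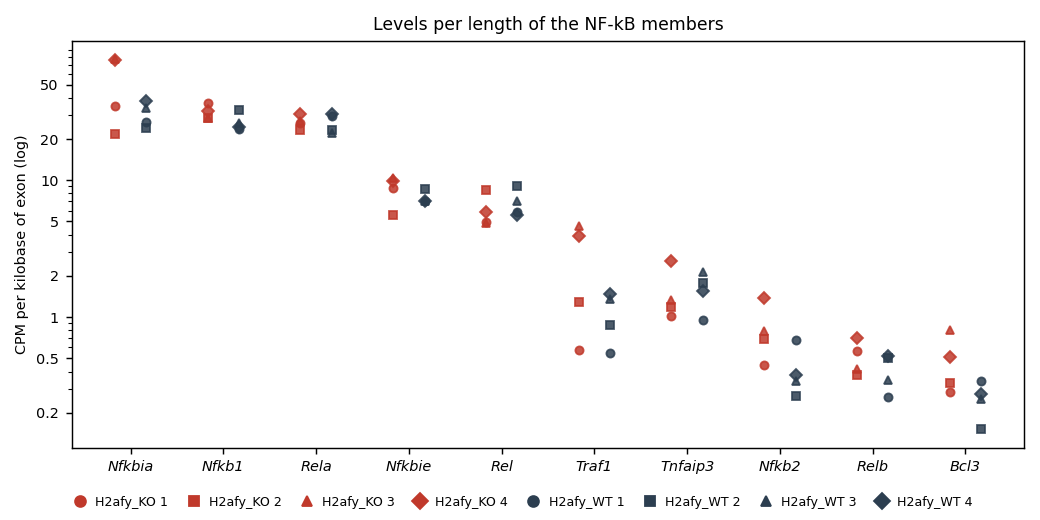
CPM per kilobase of exon (log axis) for the 10 members in order of level, with 1 point per pool, H2afy_KO to the left of H2afy_WT for each gene. Nfkbia, Nfkb1 and Rela lie above the other 7 members in all pools, and Nfkb2, Relb and Bcl3 lie lowest by mean.

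Between genotypes, no member passed the test. The edgeR quasi-likelihood test with Benjamini-Hochberg adjustment over all 13722 genes called 0 of the 10 members at an adjusted p under 0.05, where it called 0.0% of all genes (smallest adjusted p among the members 0.654). limma-voom also called 0 of the 10 and 0.0% of all genes, DESeq2 called 0 of the 10, against 0.875% of the genes it adjusted, and edgeR with the replicate number as a block called 0 of 10, against 0.109%. At an unadjusted p under 0.05 edgeR gave 1 member, Nfkb2, against 7.58% of all genes. The H2afy_KO and H2afy_WT values overlapped in each of the 10 members, while 4.53% of all genes had groups that did not overlap (2.18% with H2afy_KO higher and 2.35% with H2afy_KO lower). Of the 10 log2 fold changes 8 were positive, with a median of 0.29, against 50.1% positive and a median of 0.00074 (log2) over all tested genes. Without H2afy_KO 3 and 4, with all H2afy_WT pools kept, the median of the members was -0.034. It was 0.19 in the pools numbered 1 and 2 alone. With the replicate block it was 0.30, and with the log2 immunoglobulin share as a covariate 0.31.

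**Figure D2:**
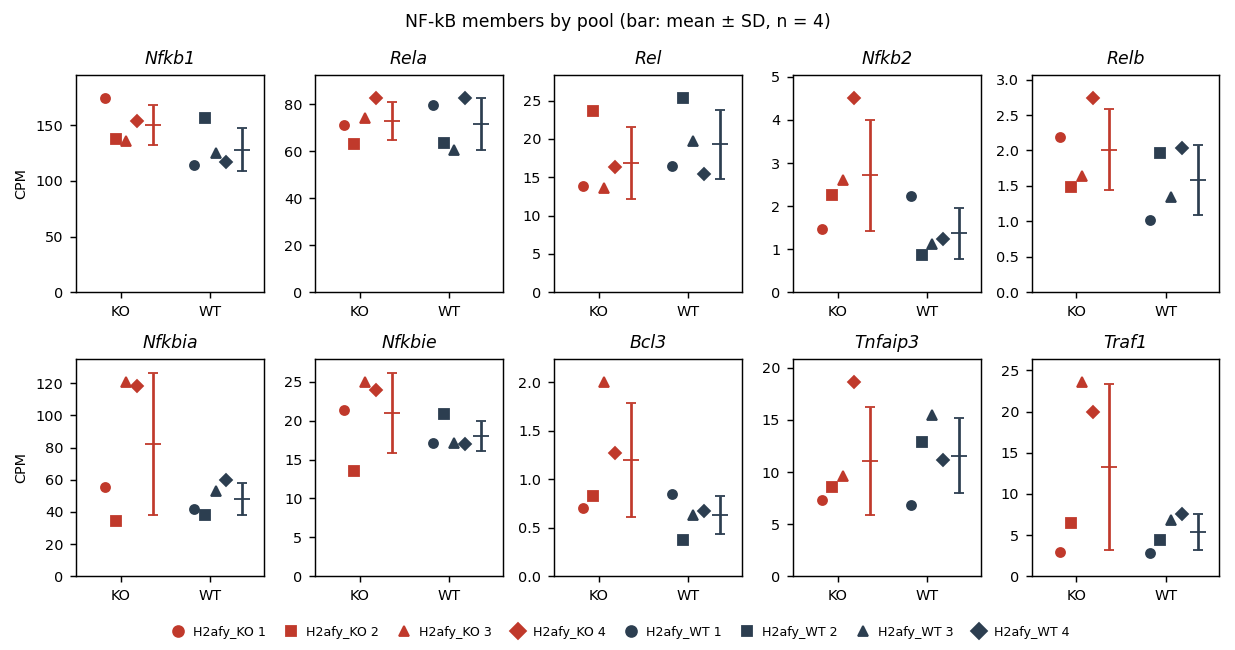
CPM of each member in the 4 H2afy_KO pools (left, red) and the 4 H2afy_WT pools (right, dark), with the mean ± SD of each group beside the points. The groups overlap in every panel, and H2afy_KO 3 and 4 are the highest pools for Nfkb2, Nfkbia, Nfkbie, Bcl3 and Traf1.

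Among the subunits, Rela and Nfkb1, which make the canonical dimer, had the smallest ratios of highest to lowest pool. Rela (ENSMUSG00000024927, chromosome 19, 5637483 to 5648130 on the plus strand of NCBIM37), which encodes the main activating subunit, had 71.2, 63.1, 74.1 and 82.7 CPM in H2afy_KO 1 to 4, against 79.5, 63.5, 60.6 and 82.5 CPM in H2afy_WT 1 to 4. Its highest pool was 1.37 times its lowest, and the groups overlapped over nearly all of their range. The log2 fold change was 0.025 (SE 0.14, edgeR adjusted p = 0.982), with a 95% interval of -0.29 to 0.34. Its sign turned without H2afy_KO 4 (-0.041), without H2afy_WT 2 (-0.033) and without H2afy_WT 3 (-0.046), so it gives no direction.

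Nfkb1 (ENSMUSG00000028163, chromosome 3, 135247619 to 135354511, minus strand), the gene of the p105 precursor of p50, had 175, 138, 136 and 153 CPM in H2afy_KO 1 to 4, against 114, 156, 125 and 117 CPM in H2afy_WT 1 to 4. Of the 4 H2afy_KO pools 1 lay above every H2afy_WT pool, and H2afy_WT 2 lay above the other 3. Nfkb1 had a log2 fold change of 0.23 (SE 0.14, edgeR adjusted p = 0.733, 95% interval -0.078 to 0.54), which was 0.30 without H2afy_KO 3 and 4.

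Rel (ENSMUSG00000020275, chromosome 11, 23641514 to 23670970, minus strand) encodes c-Rel, the subunit best known from activated lymphocytes. It had 13.8, 23.7, 13.6 and 16.3 CPM in H2afy_KO 1 to 4, against 16.5, 25.4, 19.8 and 15.5 CPM in H2afy_WT 1 to 4. In both groups the pool numbered 2 was the highest, and H2afy_KO 1 and 3 lay below all H2afy_WT pools. The log2 fold change of -0.19 (SE 0.23, edgeR adjusted p = 0.878, 95% interval -0.70 to 0.31) was -0.034 without H2afy_KO 3 and 4.

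The subunits of the alternative pathway were scarce. Nfkb2 (ENSMUSG00000025225, chromosome 19, 46379227 to 46386580, plus strand), the gene of the p100 precursor of p52, had 46, 52, 43 and 107 counts in H2afy_KO 1 to 4, against 66, 23, 27 and 33 counts in H2afy_WT 1 to 4. These were 1.46, 2.26, 2.61 and 4.51 CPM in H2afy_KO, against 2.23, 0.868, 1.13 and 1.24 CPM in H2afy_WT. Of the 4 H2afy_KO pools 3 lay above every H2afy_WT pool, and H2afy_KO 1 lay below H2afy_WT 1. Nfkb2 had a log2 fold change of 0.98 (SE 0.44, edgeR adjusted p = 0.654), which was 0.62 without H2afy_KO 4, 1.31 without H2afy_WT 1 and 0.45 without H2afy_KO 3 and 4. The end of Nfkb2 overlaps Psd on the opposite strand by a few bases, and the library kit does not mark strand.

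Relb (ENSMUSG00000002983, chromosome 7, 20191566 to 20214787, minus strand), whose protein pairs with p52, had 69, 34, 27 and 65 counts in H2afy_KO 1 to 4, against 30, 52, 32 and 54 in H2afy_WT 1 to 4. Its CPM values were 2.19, 1.48, 1.64 and 2.74 in H2afy_KO, against 1.01, 1.96, 1.34 and 2.03 in H2afy_WT. The groups overlapped, and the log2 fold change of 0.35 (SE 0.38, edgeR adjusted p = 0.866) had a 95% interval of -0.49 to 1.18.

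The inhibitor genes Nfkbia and Nfkbie and their relative Bcl3 were highest in the same 2 pools, as were Nfkb2 and Traf1. Nfkbia (ENSMUSG00000021025, chromosome 12, 56590398 to 56593634, minus strand) encodes IkB-alpha, the inhibitor that NF-kB itself induces and whose promoter is printed above. It had 55.2, 34.6, 121 and 119 CPM in H2afy_KO 1 to 4, against 41.7, 38.0, 52.8 and 59.7 CPM in H2afy_WT 1 to 4. H2afy_KO 3 and 4 were about 2 times the highest H2afy_WT pool, while H2afy_KO 2 was the lowest of all 8. IkB-alpha RNA thus had a log2 fold change of 0.78 (SE 0.40, edgeR adjusted p = 0.703), and without H2afy_KO 3 and 4 it was -0.086.

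The spread of Nfkbia within H2afy_KO (SD 0.88 on the log2 scale) stood beside one of 0.30 in H2afy_WT. Its level per length was 1.34, 0.945, 2.81 and 2.47 times that of Rela in H2afy_KO 1 to 4, against 0.904, 1.03, 1.5 and 1.25 times in H2afy_WT 1 to 4. This ratio of inhibitor to subunit transcripts, chosen after the values were seen, was above the H2afy_WT range in 2 of 4 H2afy_KO pools and the groups were not separated (difference of the mean log2 ratio 0.58, 2-sided exact permutation p = 0.257, n = 4 each, 0.457 after adjustment over the 3 ratios compared, smallest p the design allows 0.0286).

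Nfkbie (ENSMUSG00000023947, chromosome 17, 45692665 to 45700118, plus strand), the gene of IkB-epsilon, had 21.3, 13.6, 25.0 and 23.9 CPM in H2afy_KO 1 to 4, against 17.1, 20.9, 17.1 and 17 CPM in H2afy_WT 1 to 4. As with Nfkbia, H2afy_KO 3 and 4 were the highest of the 8 pools and H2afy_KO 2 the lowest. Among the H2afy_WT pools H2afy_WT 2 stood apart from the other 3. A log2 fold change of 0.22 (SE 0.20, edgeR adjusted p = 0.836) became -0.034 without H2afy_KO 3 and 4.

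Bcl3 (ENSMUSG00000053175, chromosome 7, 20393811 to 20408119, minus strand), an IkB relative that works in the nucleus with p50 and p52, had only 22, 19, 33 and 30 counts in H2afy_KO 1 to 4, against 25, 10, 15 and 18 in H2afy_WT 1 to 4. Its levels were 0.698, 0.826, 2.00 and 1.27 CPM in H2afy_KO and 0.844, 0.377, 0.628 and 0.676 CPM in H2afy_WT. H2afy_KO 3 and 4 lay above all H2afy_WT pools, while H2afy_KO 1 and 2 lay inside their range. From these low counts the fit gave a log2 fold change of 0.90 (SE 0.49, edgeR adjusted p = 0.707), or 0.28 without H2afy_KO 3 and 4. The transcripts Gm16174 and Gm16175 lie within its span on the other strand, and their reads cannot be told apart from those of Bcl3 where they share sequence.

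Tnfaip3 (ENSMUSG00000019850, chromosome 10, 18720716 to 18735463, minus strand) encodes A20, an enzyme that edits ubiquitin chains and ends NF-kB signals. It had 7.30, 8.61, 9.64 and 18.6 CPM in H2afy_KO 1 to 4, against 6.85, 12.9, 15.4 and 11.2 CPM in H2afy_WT 1 to 4. H2afy_KO 4 was the highest pool, and the other 3 H2afy_KO pools lay within the lower part of the H2afy_WT range. The log2 fold change of -0.067 (SE 0.33, edgeR adjusted p = 0.978) was -0.53 without H2afy_KO 3 and 4 and 0.084 among the pools numbered 3 and 4, so no direction can be given.

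Traf1 had the largest fold change of the 10 and the largest spread. The gene (ENSMUSG00000026875, chromosome 2, 34797270 to 34817292, minus strand) encodes an adaptor of TNF receptors that is also a target of NF-kB. It had 2.92, 6.52, 23.6 and 19.997 CPM in H2afy_KO 1 to 4, against 2.77, 4.45, 6.86 and 7.51 CPM in H2afy_WT 1 to 4. H2afy_KO 3 and 4 were far above the other 6 pools, and the highest pool was 8.52 times the lowest. Traf1 had a log2 fold change of 1.29 (SE 0.65, edgeR adjusted p = 0.701), with a 95% interval of -0.20 to 2.78. Between pools of one number, a pairing taken from these data, Traf1 was higher in H2afy_KO in 4 of 4 pairs. The share of all genes with this order was not computed. The fit with the replicate block gave a log2 fold change of 0.98 (edgeR adjusted p = 0.256). Without H2afy_KO 3 and 4 and without the block the log2 fold change was -0.19.

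**Figure D3:**
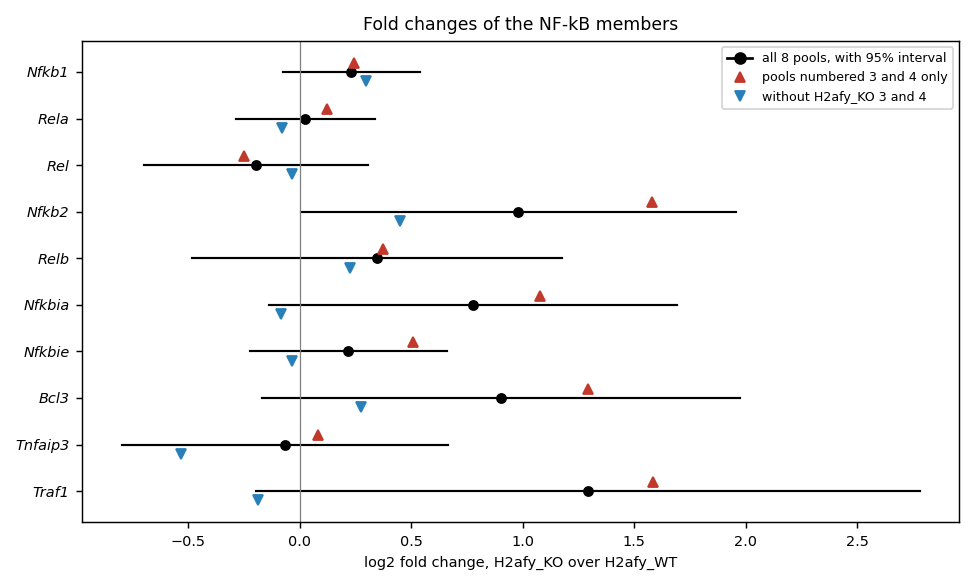
Log2 fold change of H2afy_KO over H2afy_WT for each member from the fit over all 8 pools with its 95% interval (black), from the pools numbered 3 and 4 alone (red) and without H2afy_KO 3 and 4 (blue). For Nfkbia, Nfkbie, Rela and Traf1 the sign is positive over all 8 pools and negative without H2afy_KO 3 and 4.

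The numbered pools differed in what they showed. Among the pools numbered 3 and 4 alone, Nfkbia was at a log2 fold change of 1.08 and Traf1 at 1.59, both with an edgeR adjusted p of 0.0697, and Nfkb2 was at 1.58 (edgeR adjusted p = 0.269). Among the pools numbered 1 and 2 alone, the values were 0.18 for Nfkbia, 0.38 for Traf1 and 0.26 for Nfkb2, with an edgeR adjusted p of 1 for each. With 2 pools a group, the H2afy_KO values of 6 members (Nfkb1, Nfkb2, Nfkbia, Nfkbie, Traf1 and Bcl3) lay above the H2afy_WT values in the pools numbered 3 and 4, where this held for 24.6% of all genes. In the pools numbered 1 and 2 the groups were apart for 0 members, and the share over all genes was not computed there. The difference between the numbered pairs of pools was not tested.

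Of the 10 members Traf1 had the highest correlation with the immunoglobulin share of the pools. Its log2 CPM over the 8 pools gave Pearson r = 0.84 against the log2 share (exact permutation p = 0.0130, or 0.130 adjusted over the 10 members). Spearman rho was 0.90 (p = 0.00456 by exact permutation, or 0.0456 adjusted). Leaving out H2afy_KO 1 and H2afy_WT 2, whose shares lay farthest from the median, gave r = 0.95, and for deviations from the group means it was 0.87. By Pearson r 0 of the 10 members passed the threshold after adjustment, and by Spearman rho 1 did. The share of all tested genes that follow the immunoglobulin share was not computed, so the relation cannot be called particular to Traf1.

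Bcl3, Nfkbia, Nfkb2 and Tnfaip3 had positive values with the share that did not pass. For Nfkb2 r was 0.53 and for Tnfaip3 0.50, each with an exact permutation p of 0.372 after adjustment. Rela and Nfkbie lay at r = 0.23 and 0.039, and Rel and Relb at -0.14 and -0.040. For Bcl3 r was 0.65 (exact permutation p = 0.0777, adjusted 0.372, rho = 0.52, exact permutation p = 0.197, adjusted 0.393). For Nfkbia r was 0.59 (exact permutation p = 0.113, adjusted 0.372, rho = 0.64, exact permutation p = 0.0962, adjusted 0.393), or 0.83 without the same 2 pools. Nfkb1 had r = -0.49 (exact permutation p = 0.223, adjusted 0.372, rho = -0.36, exact permutation p = 0.389, adjusted 0.535), and without them its r was 0.71, so that value rests on them. In the edgeR fit with the log2 share as a covariate the log2 fold change was 0.71 for Traf1 (adjusted p = 0.605), 0.62 for Nfkbia (adjusted p = 0.609) and 0.73 for Bcl3 (adjusted p = 0.684). The labels name no batch within which the relation could be repeated. In RNA of whole pools, more cells of a type and more RNA per cell cannot be told apart, and the part of immunoglobulin-rich cells in these levels was not tested.

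**Figure D4:**
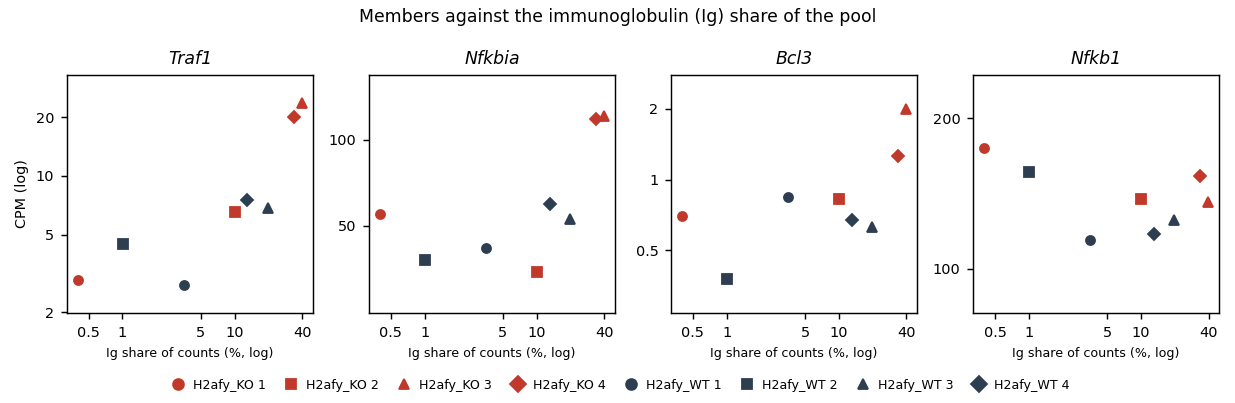
CPM of Traf1, Nfkbia, Bcl3 and Nfkb1 against the immunoglobulin share of each pool's counts, both on log axes, with 1 point per pool. Traf1 is highest in H2afy_KO 3 and 4, whose shares of 39.4% and 33.7% are the highest, while Nfkb1 shows no such order.

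Of the 45 pairs of members 33 had a positive Pearson r over the 8 pools, and 0 passed the threshold after adjustment by either measure. The share of positive pairs among all tested genes was not computed, so the count of 33 is a description only. For Nfkbia and Traf1 r was 0.83 (exact permutation p = 0.0175, adjusted over the pairs 0.276, Spearman rho = 0.71, exact permutation p = 0.0576, adjusted 0.623), and it was 0.12 without H2afy_KO 3 and 4. For Nfkb2 and Bcl3 r was 0.82 (exact permutation p = 0.0139, adjusted 0.276, rho = 0.95, exact permutation p = 0.00114, adjusted 0.0513) and 0.76 without H2afy_KO 4 and H2afy_WT 2, at counts of 10 to 107. Rel and Nfkbia had negative values (r = -0.68, exact permutation p = 0.0683, adjusted 0.384, rho = -0.86, exact permutation p = 0.0107, adjusted 0.241), with r = -0.38 without H2afy_KO 2 and H2afy_WT 2.

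The mean of the 10 members' standardised log2 CPM was -0.12, -0.33, 0.55 and 1.11 in H2afy_KO 1 to 4, against -0.56, -0.15, -0.34 and -0.14 in H2afy_WT 1 to 4. Of the tested genes outside the set, the 5 whose log2 CPM over the 8 pools was most like this mean were Hist1h1d (Pearson r = 0.97), Arid5a (0.96), BC013712 (0.95), Asb1 (0.95) and Fam129b (0.94). Arid5a, an RNA-binding protein, had 81.1, 67.8, 86.7 and 126 CPM in H2afy_KO 1 to 4, against 62.0, 67.6, 67.6 and 72.3 CPM in H2afy_WT 1 to 4. These genes were picked for the highest r among all tested genes, so the values are a description.

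The rest of the pathway was read from lists of ligands, receptors, adaptors and kinases, other inhibitors and other targets. The edgeR test called 0 genes of any of the 5 lists, as it called 0.0% of all genes. Of 9 ligand genes 5 passed the filter on low counts, 1 with a positive log2 fold change, and their median was -0.49. Tnf had 3.68, 3.78, 2.06 and 4.26 CPM in H2afy_KO 1 to 4, against 5.10, 3.77, 3.72 and 6.76 CPM in H2afy_WT 1 to 4 (log2 fold change -0.49, SE 0.31, edgeR adjusted p = 0.754). Lta was at -0.59 (SE 0.40), Ltb at 0.34 (SE 0.41) and Tnfsf13b, the gene of the B-cell survival factor BAFF, at -0.93 (SE 0.59), and none of the 3 passed the test. Tnfsf13b was lower in H2afy_KO in 4 of 4 pairs of pools of one number, and the share of all genes with this order was not computed. With the replicate block Tnfsf13b was at -0.93 (SE 0.50, edgeR adjusted p = 0.526). Cd40lg had 0 counts in each pool, which allows up to 0.182 CPM in H2afy_KO 3, the pool with the highest such limit, and covers counting error only.

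Of the 16 receptor genes, all tested, 10 had values above 0 on the log2 scale. Their median was 0.15, and it was -0.0014 without H2afy_KO 3 and 4, -0.030 in the pools numbered 1 and 2 and 0.044 without H2afy_WT 2. Tlr2, a receptor for bacterial lipoproteins, was at 6.54, 7.05, 8.67 and 8.73 CPM in H2afy_KO 1 to 4, against 3.28, 2.64, 4.77 and 5.75 CPM in H2afy_WT 1 to 4. The groups did not overlap, as in 2.18% of all genes in this direction, with a log2 fold change of 0.91 (SE 0.28, edgeR adjusted p = 0.473). Tnfrsf13b, the gene of the BAFF and APRIL receptor TACI, had 81.7, 119, 286 and 214 CPM in H2afy_KO 1 to 4, against 74.9, 67.3, 122 and 90.3 CPM in H2afy_WT 1 to 4 (log2 fold change 0.98, SE 0.39, edgeR adjusted p = 0.624). It was highest in H2afy_KO 3 and 4, like Traf1. Tnfrsf13c, the gene of the BAFF receptor, was at 0.61 (SE 0.46), with its highest levels in those pools too (65.3 and 53.2 CPM in H2afy_KO 3 and 4, and 13.1 to 28.4 CPM in the other 6). Tlr9 was at 1.16 (SE 0.70), from 1 to 20 counts a pool.

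Among the 23 adaptors and kinases, all tested, 11 had a positive log2 fold change and the median was -0.025. Malt1, a protease and adaptor that carries signals of antigen receptors to IKK, had 20.3, 24.8, 22.6 and 20.5 CPM in H2afy_KO 1 to 4, against 11.4, 19.4, 16.6 and 11.3 CPM in H2afy_WT 1 to 4. Every H2afy_KO pool lay above every H2afy_WT pool, as in 2.18% of all genes. Malt1 had a log2 fold change of 0.59 (SE 0.20, edgeR adjusted p = 0.517).

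Bcl10, whose protein binds MALT1, overlapped between groups, with 32.2, 21.6, 46.0 and 39.2 CPM in H2afy_KO 1 to 4, against 24.6, 24.9, 23.0 and 28.3 CPM in H2afy_WT 1 to 4 (log2 fold change 0.46, SE 0.21, edgeR adjusted p = 0.668). Tradd, an adaptor of the TNF receptor, was at 0.38 (SE 0.17, edgeR adjusted p = 0.654). Tab1, which encodes a partner of the kinase TAK1 upstream of IKK, had 42.4, 50.4, 41.5 and 52.4 CPM in H2afy_KO 1 to 4, against 54.7, 60.5, 53.9 and 54.5 CPM in H2afy_WT 1 to 4. It was the 1 gene of the list with all H2afy_KO pools below all H2afy_WT pools, against 2.35% of all tested genes (log2 fold change -0.26, SE 0.13, edgeR adjusted p = 0.678), and H2afy_WT 2 stood apart from the other H2afy_WT pools. The IKK subunit genes Ikbkb, Chuk and Ikbkg, outside the rule for naming and picked with their values known, were at -0.032 (SE 0.13), 0.19 (SE 0.20) and -0.18 (SE 0.14).

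The 10 inhibitors outside the set, all tested, had 3 positive log2 fold changes and a median of -0.041, with Nfkbib (IkB-beta) at 0.47 (SE 0.28), Tnip2 at 0.28 (SE 0.30, with H2afy_WT 1 apart from the other H2afy_WT pools), Commd1 at -0.13 (SE 0.16) and Nlrc3 at -0.32 (SE 0.21). Of 30 further targets 25 passed the filter, 17 with a positive log2 fold change. Their median was 0.23, but -0.11 without H2afy_KO 3 and 4 and 0.062 without H2afy_WT 1. In the pools numbered 1 and 2 alone it was 0.17 (24 targets). Fas, a death receptor, had 1.14, 4.13, 5.10 and 3.84 CPM in H2afy_KO 1 to 4, against 1.42, 1.06, 1.38 and 2.14 CPM in H2afy_WT 1 to 4 (log2 fold change 1.24, SE 0.45, edgeR adjusted p = 0.537). Of its H2afy_KO pools 3 lay above all H2afy_WT pools. Ebi3, a cytokine subunit, was at 0.77 (SE 0.32), Plek at 0.28 (SE 0.16) and the survival gene Bcl2l1 at -0.55 (SE 0.24). Cxcl10, looked up after its values were seen, was the 1 target of the 25 tested whose groups did not overlap, where 4.53% of all genes did not, at 2.02 to 3.88 CPM in H2afy_KO and 0 to 1.99 CPM in H2afy_WT (log2 fold change 1.23, SE 0.85).

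**Figure D5:**
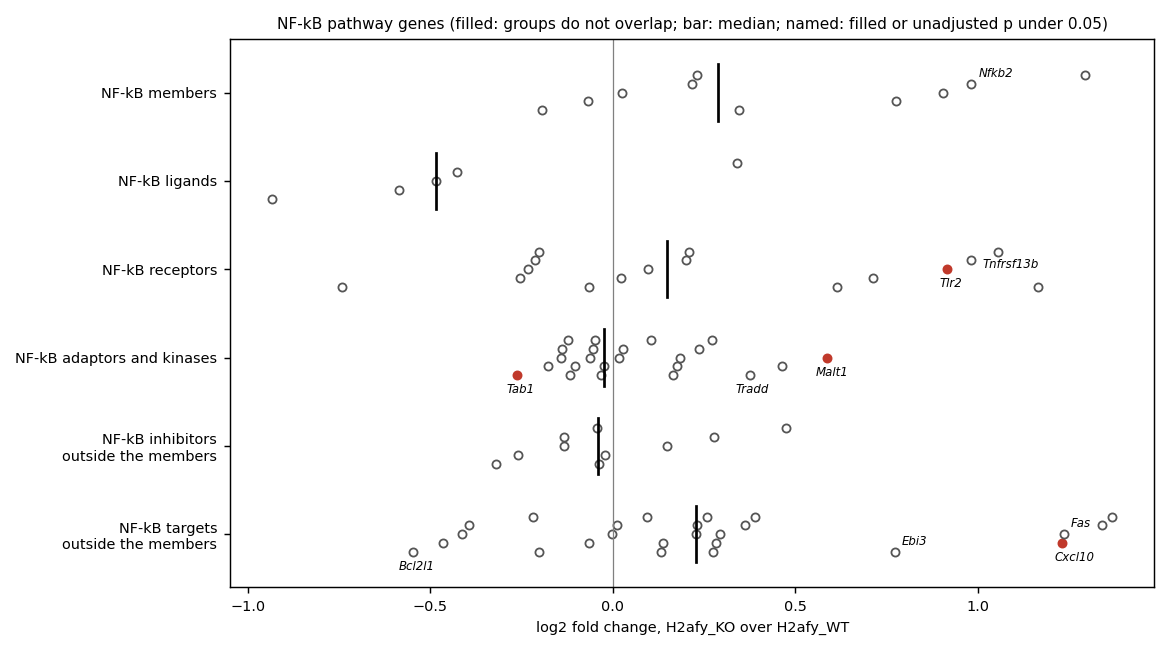
Log2 fold change of H2afy_KO over H2afy_WT for every tested gene of the 10 members and the 5 pathway lists, with 1 circle per gene, filled where the groups do not overlap, and a bar at each list's median. Malt1, Tlr2 and Cxcl10 are filled above 0, Tab1 is filled below 0, and no gene of any list passed the test over all genes.

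Markers of other cells were read beside these values. The 8 plasma cell markers had a median log2 fold change of 1.25, with 0 called, and their sums were 307 to 21064 CPM in H2afy_KO and 706 to 9342 CPM in H2afy_WT. The median was -1.40 for erythroid and megakaryocyte markers and -0.65 for granulocyte and monocyte markers, with 0 called in either list. It was 0.47 for dendritic cell, 0.43 for mature B cell, 0.035 for T and natural killer cell and 0.027 for stroma and endothelium markers. The granulocyte and monocyte markers summed to 1129 to 4236 CPM in H2afy_KO and 1506 to 9981 CPM in H2afy_WT, and the erythroid and megakaryocyte markers to 3.75 to 19.9 CPM and 3.81 to 74.6 CPM, in H2afy_KO and H2afy_WT. The 6 mature B cell markers used here summed to 11.7 to 80.4 CPM in H2afy_KO and 18.7 to 39.3 CPM in H2afy_WT, with 0 called, and their sum is that of an incomplete list. Sums were 627 to 936 CPM in H2afy_KO and 557 to 866 CPM in H2afy_WT for dendritic cell markers, and 431 to 797 CPM and 660 to 728 CPM for T and natural killer cell markers, most of it from Lck and Nkg7, while Cd3e was at or under 0.377 CPM. Stroma and endothelium markers summed to 258 to 292 CPM in H2afy_KO and 220 to 292 CPM in H2afy_WT, nearly all of it Pecam1. Their part in the levels of the NF-kB genes was not tested.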

How the data were processed

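Deposited values are raw read counts for each Ensembl gene in 8 pools, as the authors left them. Single reads of 50 bases (labels' protocols) went through HISAT2 2.0.6 on mm9, per the submitters' processing notes; the counter and its strand setting: not given in the sources used here. GENCODE M1, on NCBIM37 (the mm9 assembly), named 37205 of 37991 IDs, and 3 of 166 list symbols matched by another name. No 2 pools were alike (chi-square over degrees of freedom at least 96.5 in 28 pairs).

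H2afy_KO was set over H2afy_WT with edgeR 4.0.16 (quasi-likelihood, robust, TMM scaling, filterByExpr at 10 counts), and p-values were adjusted over 13722 genes at 0.05. The biological coefficient of variation was 0.390. CPM use TMM-scaled totals, log2 CPM a prior count of 2, and levels per length the union of exons. SEs were derived from the F statistic, and 95% intervals from the same fit. Alternatives used DESeq2 1.42.0 and limma 3.58.1 (R 4.3.3), other filters, a covariate and left-out pools. Immunoglobulin shares sum 488 annotated genes.

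The members, lists and alternatives were chosen with earlier results of these data known. Named genes were the members, H2afy, the 4 genes of smallest p in each pathway list and the 5 most like the members' mean. Pool numbers recur in both groups. Deviations from the group means correlated at 0.19, 0.19, 0.36 and 0.41 between pools of one number. Each was over 0.1, so the numbers were taken as pairs. The limit of 0.1 does not single out these pairs. H2afy_KO 1 was closer to H2afy_WT 2 (0.52) and H2afy_KO 3 closer to H2afy_WT 4 (0.45). H2afy_KO 4 and H2afy_WT 3 were over the limit too (0.17). The pairing comes from the data, since the labels state no shared litter or day. Of the genes first listed, 3 are not reported here and were left out of the list counts and sums.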

Additional observations from a re-analysis of the deposited data

Results flagged for a closer look

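Of the 62 groups of 4 pools checked over 31 genes, 3 held a pool whose gap to its nearest neighbour took a share of the group's range above Dixon's 95% critical value, and chance does so in about 1 group of 20. Nfkbie was at 20.9 CPM in H2afy_WT 2, against 17 to 17.1 CPM in the other 3 H2afy_WT pools. Tab1 was at 60.5 CPM in H2afy_WT 2, against 53.9 to 54.7 CPM in the other 3. Tnip2 was at 11.8 CPM in H2afy_WT 1, against 20.8 to 21.3 CPM in the other 3.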

How the results depend on the processing

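Members called stayed at 0 and pathway genes called at 0 under each alternative in which they were fitted, the replicate block included, and the smallest adjusted p of a member was 0.0697. With 5 CPM required in 4 samples, Nfkb2, Relb, Bcl3 and all ligands were not tested. Over all genes the count of 0 became 128 with DESeq2, 16 with no filter, 15 with the replicate block, 7 in the pools numbered 3 and 4, 5 without immunoglobulin genes, 3 with the immunoglobulin covariate and 2 with the 5 CPM filter, and 0 to 1 with each pool left out. The cause was not tested. Of 187 member values 173 kept their direction. Without H2afy_KO 3 and 4 Rela was -0.081, Nfkbia -0.086, Nfkbie -0.034 and Traf1 -0.19. In the pools numbered 1 and 2 Rela was -0.088 and Nfkbie -0.12. Tnfaip3 was 0.10 with limma-voom and 0.084 in the pools numbered 3 and 4. With each pool left out Rela ranged from -0.046 to 0.10 and Tnfaip3 from -0.44 to 0.10. Correlations with the immunoglobulin share ranged from -0.65 to 0.21 for Rel, -0.37 to 0.25 for Relb and -0.24 to 0.26 for Nfkbie with each pool left out, and 0 members passed by r throughout. Members whose groups did not overlap numbered 0 to 2 with each pool left out, and the share over all genes was not computed there. They numbered 6 in the pools numbered 3 and 4, where 45.8% of all genes did not overlap, and 0 in the pools numbered 1 and 2. The order of mean levels was the same with longest transcripts and with RLE factors. With the union of exons and with RLE factors, 3 pairs of neighbours in it kept their order in all 8 pools. With longest transcripts 2 did. Depth limits Bcl3, Nfkb2 and Relb, at 10 to 107 counts a pool.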
